A study of Bos taurus with 46 samples.

Results

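MiR-21 is described here through both of its mature products in heifer plasma, bta-miR-21-5p and bta-miR-21-3p, which were found by name and are 2 of the 870 miRNA names in the deposited tables. Small-RNA sequencing covered the plasma of 8 non-pregnant (NP) Holstein-Friesian heifers, bled on 3 days of the oestrous cycle (NP0, NP8 and NP16, for Days 0, 8 and 16), and of 11 pregnant heifers, bled on Days 16 and 24 of pregnancy (P16 and P24). All were cycling heifers in the second year of life, and all had been oestrus-synchronised with a progesterone insert, buserelin and cloprostenol; NP animals were then sham-inseminated and the others inseminated with frozen semen. The 46 libraries are repeated samples of 19 animals, so the animal is the replicate. One P16 library, from replicate 28, was left out by the study for its low read abundance and was left out here too, which leaves 10 animals in P16 and 45 libraries.

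A miRNA hairpin is cut into a duplex of which one strand is usually kept in Argonaute as the guide and the other is mostly degraded. For miR-21 the guide is the 5p arm in most tissues studied in human and mouse, and the 3p arm is the former "star" strand. MiR-21-5p represses PDCD4, an inhibitor of translation, and is abundant in leukocytes, in inflamed tissue and in many tumours. In the mouse ovary it is induced in granulosa cells by the luteinising hormone surge, where its block increases apoptosis, and the corpus luteum forms from those cells.

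In the UMD 3.1 build bta-miR-21-5p lies on chromosome 19 from 10049140 to 10049163, on the plus strand, and is 24 bases long. Bta-miR-21-3p lies on the same strand from 10049179 to 10049200 and is 22 bases long, with 15 bases between the arms. The RefSeq gene list is on another bovine build, ARS-UCD2.0. There the nearest protein-coding gene to the miR-21 gene is VMP1, a membrane protein of autophagy, 667 bases away. The next are TUBD1, a delta tubulin, and RPS6KB1, the ribosomal S6 kinase. In human, the miR-21 precursor overlaps the end of VMP1 and has its own promoter within that gene.

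MiR-21-5p was among the most abundant plasma miRNAs and miR-21-3p was a minor but well measured one. Levels are in RPM, the reads of a miRNA scaled to 1000000 mapped reads of its library, of every RNA class. Over the 45 libraries miR-21-5p had a mean of 11518 RPM, a rank of 12 among 870 names, and 1.67% of miRNA reads. MiR-21-3p had a mean of 417 RPM, a rank of 93, and 0.0606% of miRNA reads. The rank of miR-21-5p ran from 10 to 21 between libraries and that of miR-21-3p from 74 to 105. Libraries held 651408 to 5440381 miRNA reads, which were 52.5% to 80.1% of mapped reads. The lowest counts of both arms were in P24 replicate 31, with 9686 reads of miR-21-5p (8592 RPM, 95% Wilson interval 8424 to 8764) and 269 reads of miR-21-3p (239 RPM, 95% Wilson interval 212 to 269). These intervals cover counting error only, and they are narrow beside the differences between animals. Plasma is a mixture, and red cell, platelet and leukocyte miRNAs were all present, with miR-486 at a median of 135566 RPM, and of the 7 muscle miRNAs in the marker list 3 passed the filter (miR-133a, miR-208b and miR-499, with medians of 67.8, 8.89 and 12.7 RPM). A change in the number of cells that release a miRNA and a change in the amount released per cell cannot be told apart in plasma.

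The levels of miR-21-5p overlapped in all 5 groups. In NP0 miR-21-5p had a lowest value of 7203, a median of 11262 and a highest value of 16844 RPM. In NP8 the lowest, median and highest values were 6184, 13491 and 18796 RPM. In NP16 they were 6196, 9471 and 13298 RPM. The median was thus highest on Day 8 of the cycle and lowest on Day 16, and the ranges of the 3 days overlapped, although the median of Day 8 was above the highest value of Day 16. In P16 the lowest, median and highest values were 7997, 11939 and 15889 RPM. In P24 they were 8592, 10961 and 19909 RPM. The means were 11022 ± 3411 in NP0, 12563 ± 4141 in NP8 and 9609 ± 2365 RPM in NP16 (SD, n = 8 each), and 11538 ± 2429 in P16 (SD, n = 10) and 12487 ± 3574 RPM in P24 (SD, n = 11). In order of the mean, NP8 stood first, then P24, P16, NP0 and NP16, and every step between neighbours was smaller than the SD of either group.

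By its means miR-21-3p had the same order of days within each status, at a much lower level. Its lowest, median and highest values were 197, 396 and 629 RPM in NP0. They were 212, 460 and 715 RPM in NP8. They were 234, 331 and 525 RPM in NP16. Day 8 again held the highest single value, and also 2 of the 3 lowest values of the cycle. In P16 miR-21-3p had 198, 410 and 619 RPM as its lowest, median and highest values. In P24 it had 239, 423 and 656 RPM. Its means were 389 ± 134, 456 ± 196 and 358 ± 106 RPM in NP0, NP8 and NP16 (SD, n = 8 each), 416 ± 143 in P16 (SD, n = 10) and 453 ± 130 RPM in P24 (SD, n = 11).

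**Figure D1:**
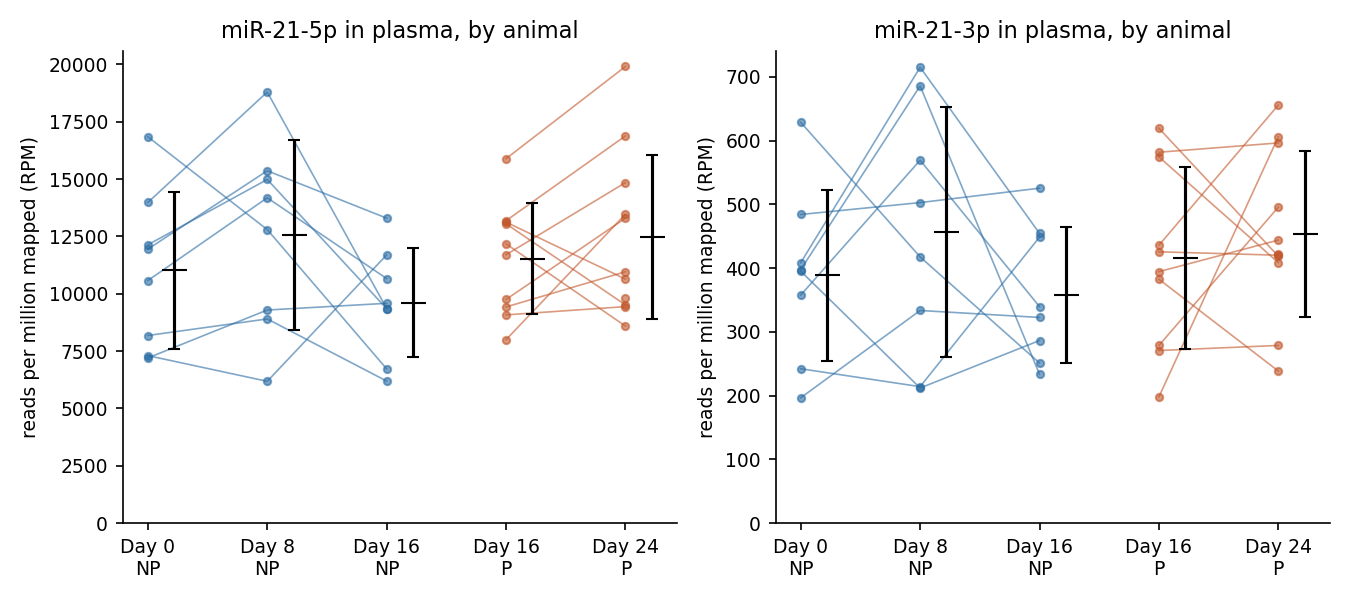
RPM of miR-21-5p (left) and miR-21-3p (right) by day, with a line for each animal (blue NP, orange pregnant) and the group mean ± SD in black beside the points. All groups overlap for both arms, with miR-21-5p between 6184 and 19909 RPM and miR-21-3p between 197 and 715 RPM.

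The first question was whether miR-21 moves over the oestrous cycle, from the oestrus of Day 0 through the luteal phase. From Day 0 to Day 8 miR-21-5p was higher in 6 of 8 animals, with the within-animal change running from 0.76-fold in replicate 21 to 1.34-fold in replicate 22. From Day 8 to Day 16 it was lower in 6 of 8 animals, from 0.498-fold in replicate 22 to 1.89-fold in replicate 16. Day 8 was the highest of the 3 days in 5 of 8 animals for miR-21-5p and in 4 of 8 for miR-21-3p. Replicate 21 followed another course, with miR-21-5p at 16844, 12798 and 6727 RPM on Days 0, 8 and 16. Replicate 16 had its highest value on Day 16, with miR-21-5p at 7304, 6184 and 11694 RPM on the 3 days. Courses thus ran in opposite directions in single animals.

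No step of the cycle passed the test for either arm, in edgeR with Benjamini-Hochberg adjustment over the 214 miRNAs that passed the filter. This fit had no block for the animal, so it took the libraries of the same 8 animals as independent. With the animal as a block the share called was also 0% in each step. In NP8 vs NP0, miR-21-5p differed by 0.14 on the log2 scale (SE 0.14, adjusted p = 0.684) and miR-21-3p by 0.16 (SE 0.20, adjusted p = 0.728). The share of all miRNAs past the false discovery rate (FDR) limit of 0.1 was 0% in NP8 vs NP0, where 19 of 214 (8.88%) had an unadjusted p under 0.05. In NP16 vs NP8, miR-21-5p differed by -0.16 (SE 0.13, adjusted p = 0.889) and miR-21-3p by -0.10 (SE 0.18, adjusted p = 0.919). The share called was 0% in NP16 vs NP8 and 5 of 214 (2.34%) had an unadjusted p under 0.05. In NP16 vs NP0 the difference was -0.0064 (SE 0.13, adjusted p = 0.985) for miR-21-5p and 0.08 (SE 0.17, adjusted p = 0.892) for miR-21-3p. The share called was 0% in NP16 vs NP0, with 12 of 214 (5.61%) at an unadjusted p under 0.05, and DESeq2 called 1, 0 and 3 miRNAs in the 3 steps, neither arm among them. The 95% intervals of miR-21-5p in edgeR reached from 0.898-fold to 1.35-fold for NP8 vs NP0 and from 0.741-fold to 1.07-fold for NP16 vs NP8. In RPM the mean within-animal change for NP16 vs NP8 was 0.785-fold, with an SD of 0.62 on the log2 scale (8 animals). The intervals thus hold for the edgeR scale only and do not bound the change in RPM. Exact sign-flip permutation tests of the within-animal change in log2(RPM + 1) gave two-sided p = 0.156 for miR-21-5p in both steps (8 animals, where 0.00781 is the smallest p possible), and 0.907 after adjustment over the 21 permutation tests of the arms. Of the 11 alternative settings of this test in each step, 1 brought the unadjusted exact permutation p under 0.05. It left out the animal whose change ran most against the mean, which favours a smaller p. The exact permutation p for NP8 vs NP0 was 0.0469 without replicate 21, and that for NP16 vs NP8 was 0.0312 without replicate 16.

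The values of Day 16 depend on the scale. On library totals the change of miR-21-5p from Day 8 to Day 16 was -0.35 on the log2 scale, and the median over all 214 miRNAs was then -0.15. On those totals miR-21-3p was -0.16 for NP16 vs NP0 in place of 0.08, with a median over all miRNAs of -0.21. The erythrocyte list (miR-486, miR-451, miR-144, miR-16a and miR-16b) took a median of 31.6% of miRNA reads in NP16 libraries (15.5% to 49.1%), of 18.1% in NP8 (9.88% to 39.8%) and of 22.7% in NP0 (7.11% to 46.3%). With reads outside that list as the divisor, the change of miR-21-5p from Day 8 to Day 16 was -0.18. The part of the erythrocyte reads in this change was not tested.

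The next question was whether pregnancy differs from the cycle. At the same day, P16 vs NP16, miR-21-5p had a log2 fold change of 0.16 (SE 0.11, adjusted p = 0.763) and miR-21-3p one of 0.09 (SE 0.17, adjusted p = 0.904). The share called was 0% in P16 vs NP16, and 15 of 214 (7.01%) had an unadjusted p under 0.05; DESeq2 called 1, which was neither arm. The interval of miR-21-5p ran from 0.957-fold to 1.31-fold and that of miR-21-3p from 0.839-fold to 1.35-fold. The exact permutation test on log2(RPM + 1) gave two-sided p = 0.106 for miR-21-5p and 0.424 for miR-21-3p (10 and 8 animals, adjusted p = 0.907 for both). Without NP replicate 35, which had the highest miR-21-5p level of NP16, the difference of miR-21-5p was 0.35 in place of 0.28 and its unadjusted exact permutation p was 0.0438. No other of the 21 alternative settings of this test gave a p under 0.05 for miR-21-5p. The erythrocyte list took a median of 18.0% of miRNA reads in P16 (13.4% to 41.6%) against the 31.6% of NP16. With reads outside that list as the divisor the log2 fold change of miR-21-5p was 0.18. Over the 27 alternative fits of this comparison it ran from 0.12 to 0.32. The part of the erythrocyte reads in this difference was not tested.

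The study's reference for pregnancy was the mean of the 3 cycle days of each NP animal. In those 8 animals miR-21-5p had a lowest value of 7760, a median of 11966 and a highest value of 14045 RPM, and miR-21-3p had a lowest value of 284 and a median of 427 RPM. The highest of these was below the highest value of P16 and of P24 for both arms, and the ranges overlapped. The NP values are means of 3 libraries and those of P16 and P24 are single libraries, so their highest values are not like for like. Among single libraries the highest NP value was 18796 RPM for miR-21-5p and 715 RPM for miR-21-3p. These were above the highest of P16 for both arms, and of P24 for miR-21-3p. In P16 vs NP the log2 difference was 0.09 (SE 0.09, adjusted p = 0.821) for miR-21-5p and 0.07 (SE 0.14, adjusted p = 0.967) for miR-21-3p, where 2 of 214 miRNAs (0.935%) were called, and 0 with the left-out P16 library kept. For P24 vs NP it was 0.15 (SE 0.10, adjusted p = 0.885) for miR-21-5p and 0.18 (SE 0.14, adjusted p = 0.925) for miR-21-3p, where 0% were called and 7 of 214 (3.27%) had an unadjusted p under 0.05 (DESeq2 also called 0). The intervals of miR-21-5p ended at 1.21-fold for P16 and 1.29-fold for P24, and those of miR-21-3p at 1.29-fold and 1.38-fold. Both comparisons use the same NP animals, and all P16 heifers are also in P24, so these values are not independent.

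Within pregnancy, miR-21-5p was higher on Day 24 than on Day 16 in 7 of 10 animals and miR-21-3p in 6 of 10. The change of miR-21-5p ran from 0.706-fold in replicate 31 to 1.68-fold in replicate 29. The same animals held the extremes for miR-21-3p, at 0.624-fold and 3.06-fold. In replicate 29 miR-21-3p was 198 RPM on Day 16, the lowest of that group, and 606 RPM on Day 24. In P24 vs P16 the log2 difference was 0.07 (SE 0.10, adjusted p = 0.999) for miR-21-5p and 0.12 (SE 0.16, adjusted p = 0.999) for miR-21-3p. The share called was 0% in P24 vs P16, with 3 of 214 (1.4%) at an unadjusted p under 0.05 and 0 calls by DESeq2. This edgeR fit too had no block for the animal, and with the block the share called was also 0%. Without replicate 29 the value of miR-21-3p was -0.03. The exact sign-flip permutation p was 0.367 for miR-21-5p and 0.531 for miR-21-3p (two-sided, 10 animals).

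**Figure D2:**
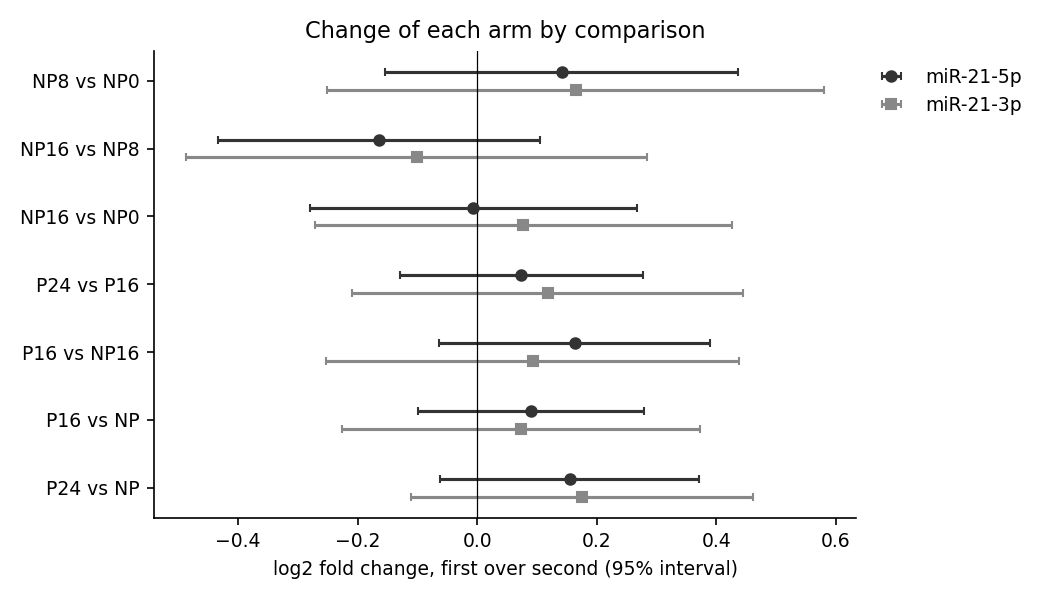
Log2 fold change of each arm in the 7 comparisons, from edgeR, with 95% intervals (circles miR-21-5p, squares miR-21-3p). Every interval holds 0, and the intervals of miR-21-3p are the wider ones throughout.

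The arms were also compared with each other, as the reads of miR-21-5p per read of miR-21-3p, a ratio within a library that needs no scaling. Over the 45 libraries the ratio had a lowest value of 19.8, a median of 27.4 and a highest value of 41.998. Its group means were 29.2 ± 5.6 in NP0, 29.2 ± 6.2 in NP8 and 27.6 ± 5.6 in NP16 (SD, n = 8 each), 29.6 ± 7.5 in P16 (SD, n = 10) and 28.4 ± 6.6 in P24 (SD, n = 11). No day or status stood apart. The mean change of the log2 ratio ran from -0.08 for NP16 vs NP0 to 0.09 for P16 vs NP16 over the 7 comparisons, with an exact permutation p of 0.227 and 0.572 at these ends and 0.907 after adjustment. Read counts depend on how each strand ligates and amplifies, so a ratio of reads is not a ratio of molecules.

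**Figure D3:**
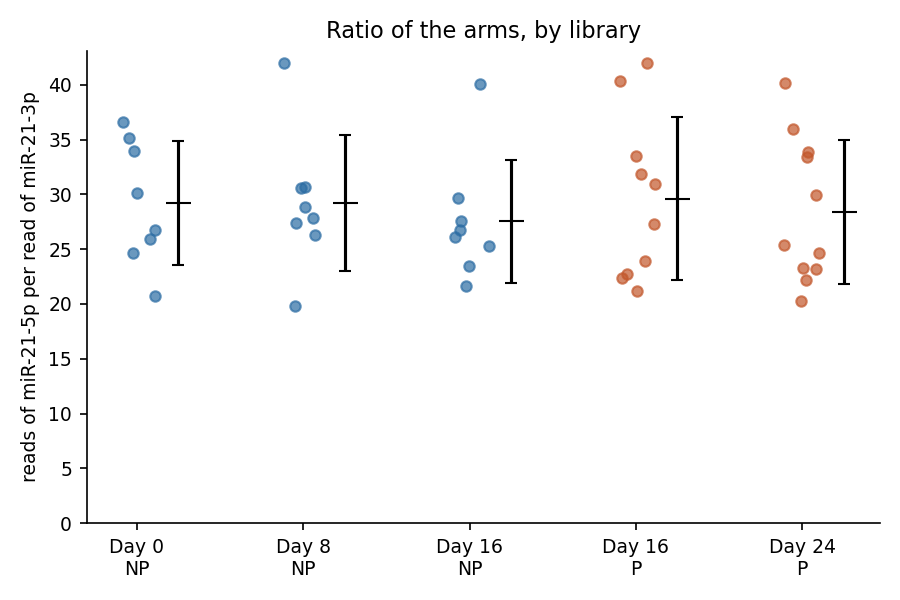
Reads of miR-21-5p per read of miR-21-3p in each library (blue NP, orange pregnant), with the group mean ± SD in black. The group means lie between 27.6 and 29.6, and single libraries between 19.8 and 41.998.

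The levels of both arms were correlated across animals, and so were their changes between days. Over the 19 animal means of log2(RPM + 1), Pearson's r was 0.74 (permutation p = 0.00032) and Spearman's rho 0.68 (permutation p = 0.00192). These are 0.003 and 0.00768 after adjustment over the 12 tests of r and rho computed, and r was 0.64 without the 2 animals farthest from the median of miR-21-5p. Within the 8 NP animals r was 0.90 and rho 0.64 (exact permutation p = 0.0117 and 0.0962). Within the 11 pregnant animals r was 0.59 and rho 0.62 (permutation p = 0.0574 and 0.0481, adjusted 0.0626 and 0.0577), so the relation did not pass on its own there. The level of both arms in RPM shares the mapped reads of its library as a divisor. With miRNA reads as the divisor, r over the 19 animals was 0.67. The permutation p values test r against 0 and not against other pairs of miRNAs. Over the 45 libraries, which come from 19 animals and are not independent, r of log2(RPM + 1) with miR-21-5p was 0.82 for miR-21-3p. As picked examples, it was 0.89 for miR-130b, the miRNA most like miR-21-5p in the ranking below, 0.73 for miR-223 and -0.55 for miR-486. A median over all miRNAs was not computed on this scale, so these examples do not show whether 0.82 is unusual.

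The within-animal changes were compared step by step. From NP0 to NP8 the arms changed in the same direction in 7 of 8 animals, with r = 0.73 and rho = 0.88 (exact permutation p = 0.037 and 0.00724). From NP8 to NP16 they did so in 5 of 8 animals, with r = 0.85 and rho = 0.81 (exact permutation p = 0.00846 and 0.0218), and r was 0.53 without the 2 farthest animals. From P16 to P24 they did so in 9 of 10 animals, with r = 0.89 and rho = 0.81 (permutation p = 0.0005 and 0.00718), and r was 0.87 without the 2 farthest. All 6 of these p stayed under 0.05 after adjustment. The variance of log2(RPM + 1) was split after the mean of each day was subtracted. Of what was left, 28.6% for miR-21-5p and 11.5% for miR-21-3p lay between the 8 NP animals. Between the 10 pregnant animals with both libraries it was 31.1% and 2.95%. By these estimates, given without intervals, most of the spread left was between samples of the same heifer. Each sample was sequenced as a single library, so this part also holds differences between library preparations.

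**Figure D4:**
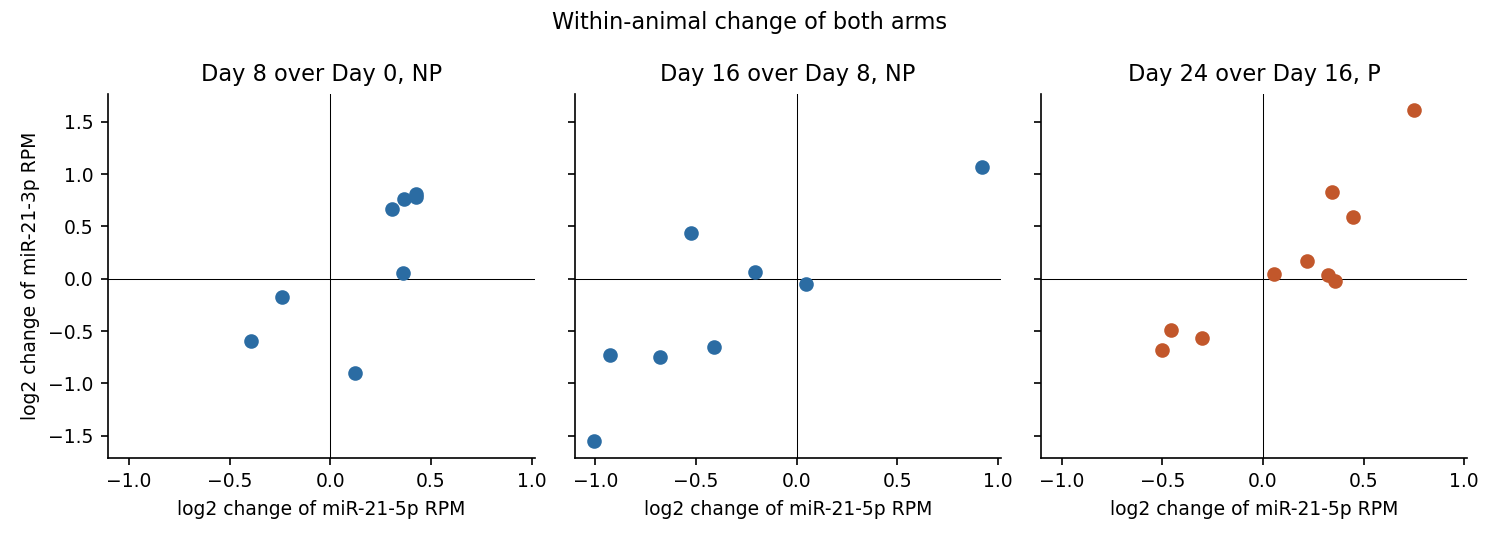
Change of miR-21-3p against change of miR-21-5p in log2 RPM within each animal, for Day 8 over Day 0 and Day 16 over Day 8 of the cycle (8 NP animals each) and Day 24 over Day 16 of pregnancy (10 animals). The arms changed in the same direction in 7 of 8, 5 of 8 and 9 of 10 animals.

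The miRNAs whose levels were most like each arm were ranked by Pearson's r of log2 CPM (TMM-scaled counts) over the 45 libraries, which come from 19 animals and are not independent, so r is a description. For miR-21-5p the highest were miR-130b (r = 0.76), miR-142-3p (0.73), miR-2284z (0.69), miR-2284aa (0.68) and miR-301b (0.68). For miR-21-3p they were miR-2285k (0.83), miR-142-3p (0.81), miR-345-3p (0.80), miR-148b (0.77) and miR-1271 (0.70). The level of miR-1271 was low, with a mean of 11.95 RPM (1.85 to 36.53 RPM). MiR-142-3p, a miRNA of blood cell lineages, was on both lists, and miR-2284 and miR-2285 belong to a large ruminant family. The more abundant arm of the same hairpin, miR-142-5p (median 18877 against 368 RPM), had r of only 0.26 with miR-21-5p and 0.23 with miR-21-3p. On log2(RPM + 1) these were 0.73 and 0.66. The median r over all other miRNAs was -0.05 for miR-21-5p and -0.03 for miR-21-3p. The other arm of miR-21 had r = 0.56 and stood at 17 of 213 for miR-21-5p and at 15 of 213 for miR-21-3p, behind miRNAs from other loci. The lowest r were those of miR-125a (-0.70), miR-484 (-0.70) and miR-665 (-0.65) for miR-21-5p, and of miR-199b (-0.60), miR-380-3p (-0.59) and miR-432 (-0.58) for miR-21-3p. These low places depend on the scale, since on log2(RPM + 1) the r of miR-21-5p was 0.04 with miR-665, -0.37 with miR-125a and -0.65 with miR-484, and that of miR-21-3p was -0.20 with miR-199b, -0.05 with miR-380-3p and -0.16 with miR-432.

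Of the 7 leukocyte miRNAs in the marker list, 6 had an r above 0 with miR-21-5p and 5 with miR-21-3p. Their r with miR-21-5p ran from -0.08 for miR-150, a lymphocyte miRNA, to 0.73 for miR-142-3p, with a median of 0.30. The list took 3.55% to 10.2% of miRNA reads, with group medians between 5.02% in P24 and 6.29% in NP8. Of the 5 erythrocyte miRNAs, 0 had an r above 0 with either arm, and miR-486 had -0.55 with both. These counts depend on the scale. On log2(RPM + 1) the leukocyte counts were 7 of 7 for miR-21-5p and 6 of 7 for miR-21-3p. The erythrocyte counts were 3 of 5 and 1 of 5, where miR-486 had -0.55 and -0.59. The 7 platelet miRNAs in the marker list had the same counts as the leukocyte list there, 7 of 7 and 6 of 7. On log2 CPM 2 of these 7 were above 0 with miR-21-5p and 3 with miR-21-3p. The leukocyte counts on log2(RPM + 1) are thus not particular to that list. MiR-223 stands in both the leukocyte and the platelet list. The part of any of these cell types in the levels of miR-21 was not tested.

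MiRNAs that share inducers or roles with miR-21 were read beside it, from lists of known biology, and 0 members of these 4 lists were called in any of the 7 comparisons. Over all miRNAs the share called was 0% in 6 of them and 0.935% in P16 vs NP, so these counts are no result about the lists. Of the miRNAs induced with miR-21 by luteinising hormone in mouse granulosa cells, miR-132 had a median of 27.1 RPM and miR-212 of 0 RPM, and miR-132 alone was tested. MiR-132 had a log2 fold change of -0.20 (SE 0.16, adjusted p = 0.615) for NP8 vs NP0 and of 0.27 (SE 0.12, adjusted p = 0.674) for P16 vs NP. Its r with miR-21-5p was -0.20.

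The inflammation list held miR-146a and miR-146b, which damp Toll-like receptor signalling, miR-155, an activation miRNA of lymphocytes and macrophages, miR-223, a myeloid miRNA, miR-132, miR-125b and miR-9-5p, of which 6 were tested. Its median log2 fold change ran from -0.09 for NP16 vs NP8 to 0.10 for NP8 vs NP0, where the median over all miRNAs was 0.02 in both. MiR-155, with a median of 172 RPM, had the highest r with miR-21-5p in this list, at 0.61 over the libraries. With the mean of each animal removed that r was 0.37. With miR-21-3p the r of miR-155 was 0.13, and -0.03 with the mean of each animal removed. MiR-155 had a log2 fold change of 0.36 (SE 0.29, adjusted p = 0.615) for NP8 vs NP0 and of -0.44 (SE 0.25, adjusted p = 0.889) for NP16 vs NP8. MiR-146b had 0.58 (SE 0.25, adjusted p = 0.889) for NP16 vs NP8, the opposite sign to miR-21-5p. MiR-125b had -0.49 (SE 0.21, adjusted p = 0.871) for P24 vs NP.

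In human cells the precursors of miR-21, miR-199a, miR-215 and miR-421 bind SMAD proteins, which promote their processing. All 4 mature names of this list other than miR-21 were tested. MiR-199a-5p had a log2 fold change of -0.78 (SE 0.29, adjusted p = 0.389) for NP8 vs NP0 and of -0.78 (SE 0.27, adjusted p = 0.617) for NP16 vs NP0, whereas miR-21-5p had 0.14 and -0.0064. MiR-199a-3p, from the same hairpin, had -0.13 (SE 0.26) and -0.0044 (SE 0.24). MiR-421 had 0.33 (SE 0.25, adjusted p = 0.615) for NP8 vs NP0, and miR-215, an intestinal and hepatic miRNA, 0.48 (SE 0.50, adjusted p = 0.684).

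The AP-1 and STAT3 list held miR-221, miR-222, miR-181b and miR-155, which these transcription factors induce in human or mouse cells as they do miR-21. All 4 had a log2 fold change above 0 for NP8 vs NP0 (median 0.14) and below 0 for NP16 vs NP8 (median -0.26), where 118 of 214 and 95 of 214 miRNAs had these signs. Both arms of miR-21 had these signs too. In NP16 vs NP0 all 4 were below 0 (median -0.06), where miR-21-3p had 0.08, and in P16 vs NP 2 were above and 2 below 0 (median -0.05), where both arms were above 0. The 4 had r of 0.03 to 0.61 with miR-21-5p. In NP16 vs NP8 miR-221, at a median of 2271 RPM, had -0.25 (SE 0.15, adjusted p = 0.889), miR-222 had -0.26 (SE 0.17, adjusted p = 0.889), and miR-181b had -0.14 (SE 0.13, adjusted p = 0.911). None of them passed the test. The lists overlap: miR-155 stands in 2 of these 4 lists and also in the leukocyte list, and miR-132 stands in 2 of the 4.

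The P16 library of replicate 28 that was left out held 17150 reads of miR-21-5p (2639 RPM, 95% Wilson interval 2600 to 2679) and 605 reads of miR-21-3p (93.1 RPM, 95% Wilson interval 86.0 to 101). Both levels were below those of every other library. MiRNA reads were 33.1% of its mapped reads, and per 1000000 miRNA reads miR-21-5p was 7978, near the lowest of the others at 7791. Its ratio of the arms was 28.3, close to the median of the other libraries.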

How the data were processed

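The deposited files hold whole-number counts of reads for each mature miRNA. The authors trimmed single-end reads, mapped them with sRNAtoolbox to the bovine genome (UMD 3.1) and to miRBase names, bovine first and human also, with at most 1 mismatch. The authors then scaled each count to 1000000 mapped reads of its library, and these are the deposited RPM values (the study's RPMM). A read was placed by name, so the arms are counted separately. Mature sequences were not used here, so miRNAs sharing the seed of either arm were not listed.

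Counts were tested with edgeR 4.0.16 in R 4.3.3 (TMM, glmQLFit, glmQLFTest, Benjamini-Hochberg over all tested miRNAs, FDR limit 0.1). The filter asked for 25 RPM in 25% or more of the libraries of any single group, which kept 214 of 870 names. NP counts were summed over the 3 libraries of an animal, and NP RPM were averaged. The 4 comparisons between days of the same animals were fitted without a block, and again with the animal as a replicate block. The pairing comes from the animal number in the labels. Same-animal deviations correlated with a median of 0.229 (NP8 vs NP0), 0.437 (NP16 vs NP8), 0.39 (NP16 vs NP0) and 0.434 (P24 vs P16) over the tested miRNAs.

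Exact permutation tests (two-sided) used log2(RPM + 1) and the log2 ratio of the arms, by sign flips within animals or by splits of the animals. Correlations over 10 or more animals used 100000 resamples. DESeq2 1.42.0, limma 3.58.1 and other scalings and filters were alternatives, as were leaving out each animal and keeping the left-out library. Correlations within NP and within pregnant animals were added after seeing the data. Python 3.11.15, numpy 2.4.6, pandas 2.3.3, scipy 1.17.1 and matplotlib 3.10.9 were used, and the tests were checked on simulated data. Depth ran from 651408 to 5440381 miRNA reads. No libraries were identical. Named miRNAs were the arms, the 5 highest and 3 lowest in likeness to each arm, and the members of the 4 lists. Members of the erythrocyte, leukocyte and muscle marker lists were also named, chosen after their values were seen. The members and lists were chosen with earlier results of these data known.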

Additional observations from a re-analysis of the deposited data

Results flagged for a closer look

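The ratio of the arms in NP16 replicate 22 was 40.05 reads of miR-21-5p per read of miR-21-3p, where the next highest of the 8 libraries of that day was 29.7. The gap was 0.562 of the range of the group, above the limit of 0.526 for 8 samples. That library held the lowest miR-21-3p level of NP16, at 234 RPM, with miR-21-5p at 9357 RPM. Of 27 sets of values examined in this way 1 stood out, and chance gives about 1 in 20.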

How the results depend on the processing

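Neither arm passed the FDR limit of 0.1 in any of the 324 fits run, and the smallest adjusted p was 0.343. With the animal as a replicate block, miR-21-5p had 0.14 in NP8 vs NP0, -0.17 in NP16 vs NP8, -0.0098 in NP16 vs NP0 and 0.068 in P24 vs P16 on the log2 scale, and the block changed no call. In NP16 vs NP0 miR-21-3p (0.08) turned to -0.16 on library totals and to -0.094 with limma on either pseudocount. In P16 vs NP, keeping the left-out library turned the RPM differences to -0.13 for miR-21-5p and -0.18 for miR-21-3p, and it raised r of the arms over pregnant animals to 0.75. DESeq2 called 1 miRNA in NP8 vs NP0, 3 in NP16 vs NP0 and 1 in P16 vs NP16, where edgeR called 0. In NP16 vs NP0, library totals and no filter each gave 1 call. In P16 vs NP, the call count of 2 became 1 with the filter at 100 RPM, 3 with no filter, and 0 with the left-out library kept or with NP libraries as independent.

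Leaving out each animal gave ranges. For the RPM of miR-21-5p these were 0.13 to 0.25 in NP8 vs NP0, -0.53 to -0.26 in NP16 vs NP8, 0.19 to 0.35 in P16 vs NP16 and -0.0046 to 0.12 in P16 vs NP. For the RPM of miR-21-3p they were -0.23 to 0.081 in NP16 vs NP0, -0.0097 to 0.24 in P24 vs P16 and -0.066 to 0.12 in P16 vs NP. For the log2 arm ratio they were -0.15 to 0.050 in NP8 vs NP0, -0.17 to 0.048 in NP16 vs NP8, -0.074 to 0.064 in P24 vs P16, -0.010 to 0.099 in P16 vs NP and -0.058 to 0.041 in P24 vs NP. In edgeR they were 0.13 to 0.22 in NP8 vs NP0, -0.26 to -0.085 in NP16 vs NP8, -0.12 to 0.073 in NP16 vs NP0, 0.011 to 0.10 in P24 vs P16, 0.12 to 0.20 in P16 vs NP16, 0.054 to 0.12 in P16 vs NP and 0.11 to 0.19 in P24 vs NP for miR-21-5p. For miR-21-3p they were 0.078 to 0.28 in NP8 vs NP0, -0.26 to 0.042 in NP16 vs NP8, -0.065 to 0.17 in NP16 vs NP0, -0.029 to 0.16 in P24 vs P16, 0.0040 to 0.15 in P16 vs NP16, 0.016 to 0.13 in P16 vs NP and 0.12 to 0.23 in P24 vs NP. Calls over all miRNAs ran from 0 to 1 in P16 vs NP16, with 1 without NP replicate 16 or without P replicate 29, and from 0 to 2 in P24 vs NP, with 2 without P replicate 24. The cause of these changes was not tested. The counts of miR-21-3p (269 to 3526 reads) leave more counting error than those of miR-21-5p (9686 to 113838).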
